A study of Sus scrofa with 28 samples.

Results

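Claudins, occludin and the scaffold protein ZO-1 are components of the tight junction, and their transcripts were followed here in the lungs of swine that had inhaled sulfur mustard vapor. The genes were taken as a named set of 10, CLDN1, CLDN3, CLDN4, CLDN5, CLDN7, CLDN11, CLDN14, CLDN18, OCLN and TJP1, and every probe set that the porcine array's annotation gave exactly 1 of these symbols was used. This gave 11 of the 23999 probe sets tested, for 8 of the 10 genes. CLDN3 had 2 probe sets, OCLN had 3 and each of CLDN4, CLDN5, CLDN7, CLDN11, CLDN14 and TJP1 had 1. CLDN1 and CLDN18 were not listed under a single symbol and were not analysed here.

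Tight junctions seal the space between neighbouring epithelial or endothelial cells near their outer margin and so limit the leak of water, ions and proteins between blood, tissue and air. Claudins are membrane proteins that line up in strands and set which ions and molecules pass, occludin is a second membrane protein of these strands, and ZO-1, encoded by TJP1, ties the strands to the actin cytoskeleton from inside the cell. Sulfur mustard is an alkylating blister agent that injures the epithelium of the airways, and the lung's barrier against fluid depends on these junctions in both its epithelium and its vessels.

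The animals were female swine, anesthetized, intubated and lying supine, that inhaled the vapor of sulfur mustard (HD), or air as control, over 10 min and were killed 12 h later. The air group had 3 animals (28, 29 and 44). The low group had 3 animals (31, 32 and 33) given 60 µg/kg, and the medium group had 4 animals (34, 39, 41 and 42) given 100 µg/kg. Each animal's left lung gave 1 array from its apical, 1 from its median and 1 from its caudal lobe. Medium animal 39 lacked the caudal array and medium animal 41 the apical one, which left 28 arrays. No strain, breed, age or batch was given in the labels.

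The 28 arrays were alike in brightness, with median signals from 55.6 to 64.4 and a mean correlation with the other arrays from 0.968 to 0.982. Markers of lung cells were bright: the surfactant gene SFTPC of alveolar type 2 cells had a mean signal of 2929, the type 1 cell gene AGER 668 and the endothelial gene PECAM1 1667. The cartilage factor gene SOX9 and the heart muscle gene TNNT2 lay at the 1st percentile of brightness, but other markers of these tissues were brighter. The summed signal of 5 cartilage markers was 90.3 to 142 over animals, and that of 5 heart muscle markers 128 to 228. In apical versus median 1 heart muscle marker was called lower, beside 2.38% of all probe sets called. The same held for 1 in apical versus caudal, beside 0.167%. None of the airway basal cell markers sought was measured under a single symbol. RNA integrity was followed by an index from the array's actin and GAPDH controls, the average log2 excess of their 3' over their 5' signal, which is higher where RNA is less intact. The index was 0.97 to 1.35 in air animals, 0.62 to 1.06 in low animals and 0.66 to 2.17 in medium animals, with the highest value in medium animal 39. Because each array measured lung tissue of mixed cells, fewer cells of a type and less RNA per cell cannot be told apart.

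Signals are given as deposited, and comparisons are on the log2(signal + 16) scale after quantile normalization, on which the difference of a dim gene is understated. An animal's value is its level over its lobes, adjusted for which lobes it had. A gene was called when its Benjamini-Hochberg adjusted p over all 23999 probe sets, from limma, was under 0.05. Mean signals over the 28 arrays were 137 for CLDN3, 234 for CLDN4, 565 for CLDN7, 1428 for CLDN5, 624 for CLDN11 and 469 for OCLN, each in its brightest probe set. CLDN14 at 11.04 and TJP1 at 42.9 were below the median probe set, at 61.5, so their values are the least certain. Signals of different probe sets cannot be ranked against each other as amounts of RNA.

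In the exposure comparisons over the whole animal, 0 of the 8 genes were called. Of all probe sets, the share called was 0% in low versus air, 0.129% in medium versus air and 0.00417% in medium versus low. At an unadjusted threshold of 0.05, 3 of the 8 genes would have passed in low versus air, 4 in medium versus air and 1 in medium versus low, beside 7.41%, 16.6% and 18.2% of all probe sets. The median difference of the 8 genes was 0.08 in low versus air, 0.15 in medium versus air and -0.04 in medium versus low, and that of all probe sets was within 0.01 of 0 in each. Animal values of 3 genes in low versus air did not overlap between the groups (CLDN4 and CLDN14 higher, TJP1 lower), beside 18.6% of all probe sets. The same held for 4 genes in medium versus air (CLDN4, CLDN7 and CLDN14 higher, CLDN11 lower), beside 13.5%, and for 1 gene in medium versus low (TJP1 higher), beside 13.9%. Low and medium animals were compared with the same 3 air animals, so these counts are not independent of each other.

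**Figure D1:**
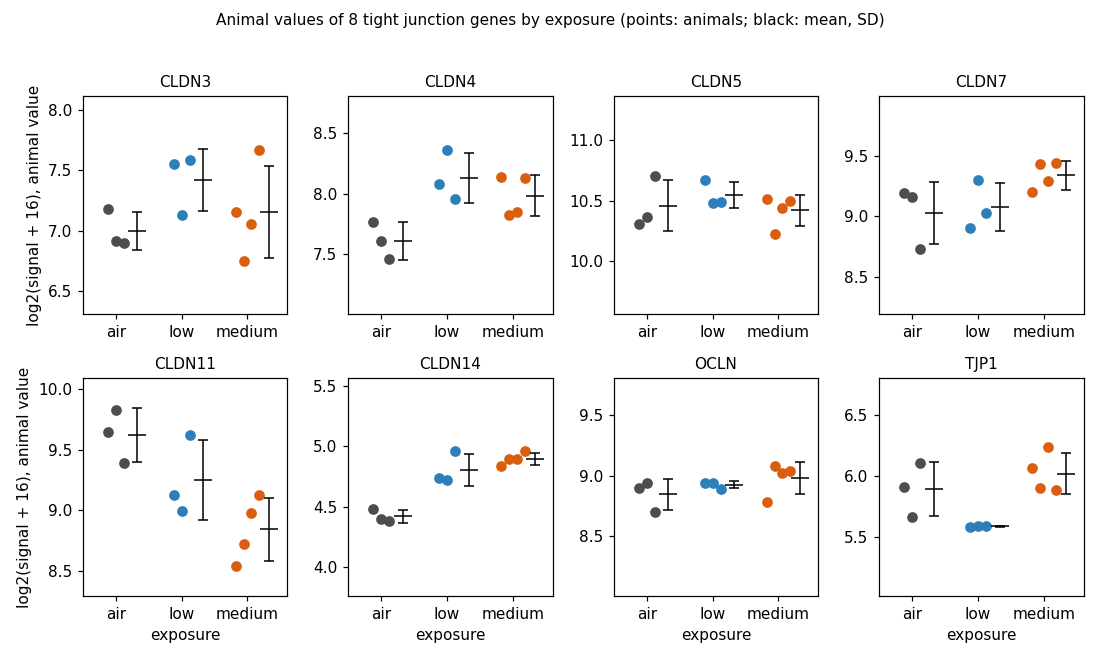
Value of each animal, on the log2(signal + 16) scale, for the 8 measured genes in air, low and medium animals; points are animals and the black bars are group means with the SD, and every panel spans the same range of 1.8. CLDN11 animals lie lower in the medium group, at 8.54 to 9.12, than in air, at 9.39 to 9.83, and the 3 low animals of TJP1 lie together at 5.58 to 5.59.

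Among the claudins of epithelial cells, CLDN4 was higher in both exposed groups than in air, without passing the test. CLDN3 and CLDN4 are neighbouring genes for claudins that tighten epithelia, and CLDN7 encodes a claudin found along the sides of epithelial cells. The 3 air animals had CLDN4 values of 7.77, 7.61 and 7.46, the low animals 8.09, 8.36 and 7.96, and the medium animals 8.14, 7.82, 7.85 and 8.13. Every exposed animal lay above every air animal, and the smallest gap was between air animal 28 and medium animal 39. As signals, group means were 184 ± 23.4 in air (SD, n = 3), 264 ± 40.7 in low (n = 3) and 250.2 ± 17.9 in medium animals (n = 4). The difference from air was 0.52 ± 0.14 (SE) in low animals (adjusted p = 0.653) and 0.37 ± 0.13 in medium animals (adjusted p = 0.193), with -0.15 ± 0.13 between the doses (adjusted p = 0.559).

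CLDN4 was also followed beside markers of airway cells, which express it, and of alveolar cells. The summed signal of 5 ciliated cell markers was 891 to 1210 in air, 1106 to 1406 in low and 945 to 996 in medium animals. That of 6 airway secretory markers was 2589 to 3307 in air, 3493 to 3802 in low and 2148 to 2955 in medium animals. Both sums leaned upward in the low group, where 5 of 5 ciliated and 4 of 6 secretory markers were above 0 against air, while 0 of 5 and 2 of 6 were above 0 in medium animals. The 2 secretory markers above 0 in medium animals were KRT19, at 0.44 ± 0.11 (adjusted p = 0.109), after 0.74 ± 0.11 in low animals (adjusted p = 0.316), and LTF, at 0.28 ± 0.17 (adjusted p = 0.444), after -0.08 ± 0.18 in low animals (adjusted p = 0.931). Of 7 alveolar type 2 markers 4 were above 0 in low versus air and 3 in medium versus air. In the latter 1 of the 7 was called lower, beside 0.129% of all probe sets called. Of 6 alveolar type 1 markers 2 were above 0 in low versus air and 4 in medium versus air, and 0 were called. The part of all these cells in the CLDN4 values was not tested.

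CLDN3 and CLDN7 each leaned upward at 1 dose. CLDN3 values were 7.18, 6.91 and 6.90 in air, 7.55, 7.13 and 7.58 in low, and 7.16, 6.75, 7.05 and 7.67 in medium animals. Low animal 32 lay within the range of air, and medium animals spanned a range wider than both other groups. The differences were 0.42 ± 0.21 in low versus air (adjusted p = 0.683) and 0.16 ± 0.20 in medium versus air (adjusted p = 0.742). CLDN7 values were 9.19, 9.16 and 8.73 in air, 8.91, 9.30 and 9.03 in low, and 9.19, 9.43, 9.29 and 9.44 in medium animals. Low animals were mixed with air animals, and medium animal 34 was only just above the highest air animal. The differences were 0.05 ± 0.14 in low versus air (adjusted p = 0.945) and 0.31 ± 0.13 in medium versus air (adjusted p = 0.288). The dimmer CLDN3 probe set, at a mean signal of 16.6, differed by 0.20 in low versus air and by 0.21 in medium versus air, the same direction as the brighter one.

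CLDN5, the main claudin of blood vessel endothelium, was nearly level across exposures. Its values were 10.31, 10.37 and 10.70 in air, 10.67, 10.48 and 10.49 in low, and 10.51, 10.23, 10.44 and 10.50 in medium animals. All 3 groups overlapped, with air animal 44 highest and medium animal 39 lowest. The differences were 0.09 ± 0.12 in low versus air (adjusted p = 0.866) and -0.04 ± 0.11 in medium versus air (adjusted p = 0.902). The summed signal of 10 endothelial markers was 5176 to 5718 in air, 5018 to 5574 in low and 5304 to 5919 in medium animals, and these ranges overlapped too.

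CLDN11 had the largest exposure difference of the 8 genes on this scale, though CLDN14 exceeded it with an offset of 1 before the logarithm. Its protein is best known from the myelin of oligodendrocytes and from Sertoli cells, where it forms parallel strands. Animal values were 9.65, 9.83 and 9.39 in air, 9.13, 8.99 and 9.62 in low, and 8.54, 8.72, 8.98 and 9.12 in medium animals. All 4 medium animals lay below all 3 air animals, while the low animals overlapped both groups, with low animal 33 within the range of air and low animal 32 within that of the medium animals. Group means were 795 ± 113 in air (SD, n = 3), 614 ± 142 in low (n = 3) and 475 ± 87.5 in medium animals (n = 4), in signal units. The difference was -0.37 ± 0.20 in low versus air (adjusted p = 0.691), -0.78 ± 0.19 in medium versus air (adjusted p = 0.106) and -0.41 ± 0.19 in medium versus low (adjusted p = 0.281). Medium versus air passed only when all arrays entered with a random animal effect (-0.78, adjusted p = 0.0407), a fit in which lobes sharing an animal also bear on the error. With that fit 1044 of all probe sets were called in place of 31.

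CLDN14, a claudin of the inner ear and kidney tubule, was dim and came nearest to the threshold. Air animals had signals of 5.78, 5.25 and 5.11, low animals 11.4, 10.7 and 15.9, and medium animals 12.7, 12.0, 17.6 and 16.4, averaged over their lobes. All 7 exposed animals were above all 3 air animals, at signals that lie near the 20th percentile of brightness for the gene as a whole. Single arrays spread more widely, from 1.10 in the median to 10.2 in the apical lobe of air animal 28. Low animal 31 was at 5.54 and medium animal 34 at 6.96 in the caudal lobe. Both exposed groups overlapped air within the apical and within the caudal lobe. The log2 difference was 0.38 ± 0.08 in low versus air (adjusted p = 0.526) and 0.47 ± 0.07 in medium versus air (adjusted p = 0.0519). With an offset of 1 in place of 16 the latter was 1.34 and passed (adjusted p = 0.0335). It also passed without low animal 33 (0.47, adjusted p = 0.0484), without medium animal 34 (0.50, adjusted p = 0.0351), without medium animal 39 (0.48, adjusted p = 0.0392) and with the RNA integrity index as a covariate (0.47, adjusted p = 0.0489). Of all probe sets, 31 were called without these changes. The count was 23 with the offset of 1, 27 without animal 33, 241 without 34, 391 without 39 and 87 with the covariate. Over all alternatives the adjusted p of CLDN14 in medium versus air ranged from 0.0335 to 0.264.

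OCLN and TJP1, the genes of occludin and of the ZO-1 scaffold, differed little or only at 1 dose. OCLN values in the brightest probe set were 8.90, 8.94 and 8.70 in air, 8.94, 8.94 and 8.89 in low, and 8.78, 9.08, 9.02 and 9.04 in medium animals. The groups overlapped, and the differences from air were 0.08 ± 0.10 in low (adjusted p = 0.844) and 0.14 ± 0.09 in medium animals (adjusted p = 0.478). TJP1 values were 5.91, 5.66 and 6.11 in air, 5.58, 5.59 and 5.59 in low, and 6.06, 5.90, 6.24 and 5.88 in medium animals. The 3 low animals lay below every other animal, and air and medium animals overlapped. The difference was -0.31 ± 0.13 in low versus air (adjusted p = 0.666), 0.13 ± 0.12 in medium versus air (adjusted p = 0.629) and 0.43 ± 0.12 in medium versus low (adjusted p = 0.138).

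The probe sets of OCLN disagreed. The second, at a mean signal of 77.3, had animal values of 6.29, 6.51 and 6.31 in air, 6.86, 6.60 and 6.89 in low, and 6.46, 5.93, 6.16 and 6.75 in medium animals. Its low animals were all above air, by 0.41 ± 0.19 (adjusted p = 0.677), where the brightest probe set gave 0.08. In medium versus low it differed by -0.45 ± 0.18 (adjusted p = 0.226), opposite in sign to the 0.06 of the brightest. The dimmest, at 29.8, gave 0.22 in low versus air and -0.20 in medium versus low, the same signs as the second. Over the 28 arrays, which share animals, the second and the dimmest correlated at r = 0.77 with each other and at 0.14 and 0.20 with the brightest.

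The same 2 probe sets moved with RNA integrity. Across the 28 arrays their correlation with the 3' to 5' index was -0.79 and -0.75, against 0.27 for the brightest OCLN probe set. It was -0.59 for the brighter CLDN3 probe set, -0.55 for CLDN5 and between -0.22 and 0.38 for the brightest probe sets of the remaining genes. The low animals had the lowest mean index, 0.76, against 1.12 in air and 1.24 in medium animals. With the index as a covariate the CLDN3 difference in low versus air was 0.28 in place of 0.42, CLDN4 was 0.49 in place of 0.52, CLDN11 in medium versus air was -0.77 in place of -0.78, and TJP1 in medium versus low was 0.45 in place of 0.43. For OCLN, which of its probe sets follows the transcript could not be settled from these values.

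**Figure D2:**
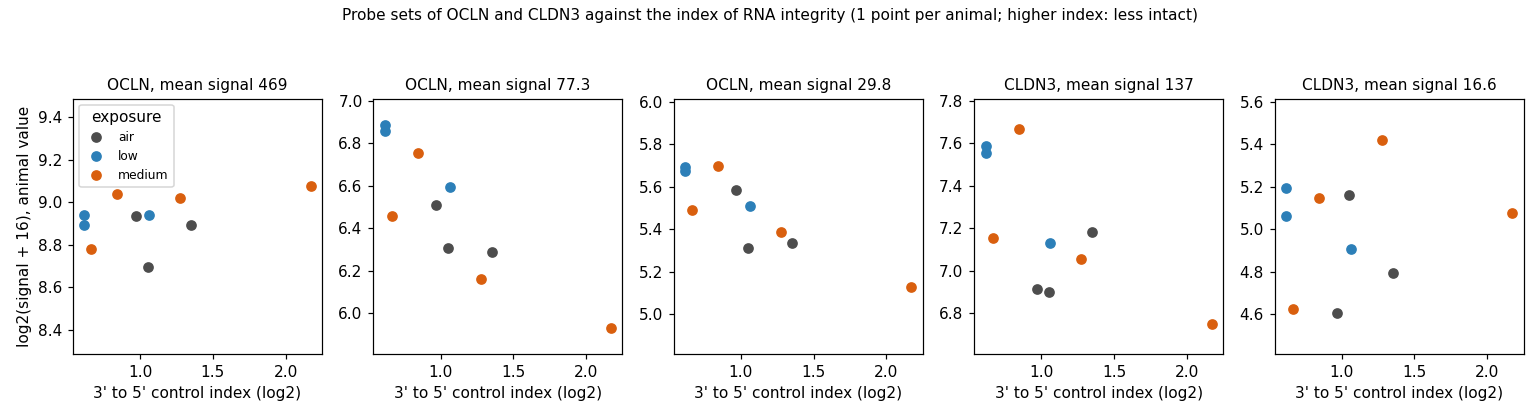
Animal values of the 3 OCLN and 2 CLDN3 probe sets on the log2(signal + 16) scale against the log2 index of 3' to 5' control signal, 1 point per animal, coloured by exposure; a higher index means less intact RNA, and every panel spans a range of 1.2. The OCLN probe sets with mean signals of 77.3 and 29.8 and the brighter CLDN3 probe set lie lowest in medium animal 39, which has the highest index, 2.17, while the OCLN probe set at 469 does not.

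Among lobes, CLDN11 was higher in the apical than in the median lobe in all 9 animals that had both, and it was the only one of the 8 genes called in any comparison over all animals. Apical signals ran from 668 to 1008 with a median of 928 (9 arrays), median lobe signals from 248 to 817 with a median of 434 (10 arrays), and caudal signals from 212 to 891 with a median of 488 (9 arrays). The arrays of the 3 lobes overlapped, but within an animal the apical lobe was the highest of its lobes in each case. The difference in apical versus median was 0.80 ± 0.15 (adjusted p = 0.0152), with 2.38% of all probe sets called. In apical versus caudal it was 0.69 ± 0.15, with the apical lobe higher in 8 of 8 animals (adjusted p = 0.07), beside 0.167% of all probe sets called. In caudal versus median it was 0.11 ± 0.15 (adjusted p = 0.811), where the caudal lobe was higher in 5 of 9 animals and 0% of all probe sets were called.

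The CLDN11 excess of the apical over the median lobe leaned larger in medium animals, without passing a test of interaction. The apical lobe exceeded the median lobe by 0.64, 0.27 and 0.65 in air animals 28, 29 and 44, by 0.71, 0.53 and 0.29 in low animals 31, 32 and 33, and by 1.03, 1.57 and 1.31 in medium animals 34, 39 and 42. The 3 medium animals thus exceeded all 6 others, and how often this occurs over all probe sets was not counted. The apical excess over the caudal lobe was 1.59 and 0.96 in medium animals 34 and 42. It was 0.12 to 0.96 in air and 0.15 to 0.92 in low animals. The difference in medium versus air was 0.85 larger in the apical than in the median lobe, and the interaction of exposure and lobe did not pass (adjusted p = 0.668, moderated F test). No probe set was called for the interaction, which is 0% of them, and CLDN11 was the only one of the 8 genes under an unadjusted threshold of 0.05. In the 3 air animals alone the apical excess was 0.52 (adjusted p = 0.78). Apical versus median also missed the threshold without medium animal 42 (0.74, adjusted p = 0.0624). It missed it too in the 8 animals with all 3 lobes (0.68, adjusted p = 0.0651). Calls over all probe sets fell as well, from 570 to 34 without animal 42 and to 48 in the 8 animals. In the air animals alone 0 probe sets were called.

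**Figure D3:**
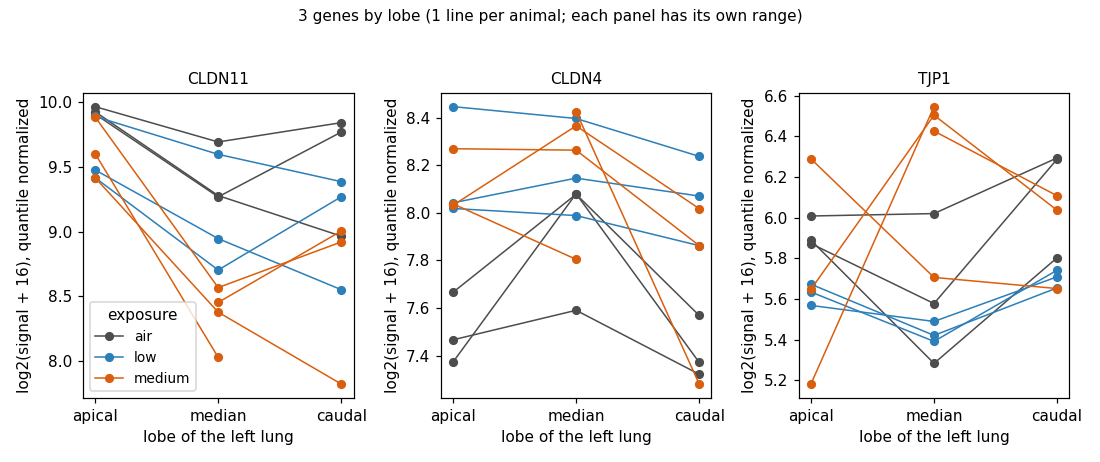
Quantile-normalized log2(signal + 16) of CLDN11, CLDN4 and TJP1 in the apical, median and caudal lobes, with 1 line per animal coloured by exposure and a separate range in each panel; medium animals 39 and 41 lack 1 lobe each. CLDN11 is highest in the apical lobe of every animal that has one, CLDN4 is lower in the caudal than in the median lobe of all 9 animals with both, and TJP1 reaches 6.43 to 6.55 in the median lobe of 3 medium animals.

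Markers of other cells were set beside the CLDN11 lobe difference. In apical versus median 2 of 7 smooth muscle markers were above 0 with a median of -0.16, and their summed signal ran from 5267 to 8979 in apical and from 6619 to 9906 in median lobes. Of 6 airway secretory markers 0 were above 0. The epithelial keratin KRT19 among them was called lower in the apical lobe (-0.43 ± 0.09, adjusted p = 0.022), beside 2.38% of all probe sets called. Of 10 endothelial markers 6 were above 0, and of 6 fibroblast markers 3. Across the 28 arrays CLDN11 correlated with the summed smooth muscle signal at r = -0.49, and with the other marker sums at -0.38 to 0.15. The part of these cells in the lobe difference was not tested. The RNA index differed little between lobes, with means of 0.99, 1.02 and 1.04 in apical, median and caudal lobes.

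The other 7 genes were not called between lobes, and of these only CLDN7 in apical versus median and CLDN4 in caudal versus median were under an unadjusted threshold of 0.05. Of all probe sets, 16.6% were under it in apical versus median, 13.6% in apical versus caudal and 11.6% in caudal versus median. CLDN4 was lower in the caudal than in the median lobe in 9 of 9 animals, by 0.08 to 1.14, with a difference of -0.39 ± 0.09 (adjusted p = 0.124). The difference was smallest in low animal 31 and largest in medium animal 41. CLDN7 was lower in the apical than in the median lobe in 8 of 9 animals, with a difference of -0.22 ± 0.08 (adjusted p = 0.131), and low animal 33 was the exception. CLDN3, CLDN5, CLDN14, OCLN and TJP1 differed between lobes by -0.18 to 0.16 in their brightest probe sets, with adjusted p-values of 0.464 or more.

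Within single lobes 0 of the 8 genes were called in any of the 9 exposure comparisons. At an unadjusted threshold of 0.05, low versus air, medium versus air and medium versus low would have passed 1, 1 and 0 genes in the apical lobe, 1, 5 and 4 in the median lobe, and 3, 1 and 0 in the caudal lobe. The shares of all probe sets under it, in the same order, were 7.12%, 5.77% and 11.2% in the apical, 6.93%, 18.6% and 22.4% in the median, and 6.09%, 15.5% and 9.96% in the caudal lobe. In the apical lobe 0% of probe sets were called in each of the 3 comparisons. CLDN4 there was 7.67, 7.37 and 7.47 in air, 8.04, 8.45 and 8.02 in low, and 8.03, 8.04 and 8.27 in medium animals. Both exposed groups lay clear of air, by 0.67 ± 0.14 in low (adjusted p = 0.691) and 0.61 ± 0.14 in medium animals (adjusted p = 0.8). CLDN11 in the apical lobe was 9.90, 9.96 and 9.92 in air, 9.41, 9.47 and 9.89 in low, and 9.41, 9.60 and 9.88 in medium animals. The exposed animals were all below air, by 0.34 ± 0.16 in low (adjusted p = 0.698) and 0.30 ± 0.16 in medium animals (adjusted p = 0.88), but low animal 33 and medium animal 42 missed the air range by little. In all, the animals of 3 genes did not overlap in low versus air (CLDN4, CLDN11 and TJP1), beside 16% of all probe sets, 2 in medium versus air (CLDN4 and CLDN11), beside 10.2%, and 0 in medium versus low, beside 14.3%.

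The difference of medium from air animals was largest in size in the median lobe for CLDN5, CLDN7, CLDN11, CLDN14 and TJP1. It was largest in the apical lobe for CLDN4 and in the caudal lobe for CLDN3 and OCLN. In the median lobe, to which the values below belong, 4 medium animals had an array, against 3 in each other lobe. CLDN11 was 9.27, 9.69 and 9.28 in air, 8.70, 8.95 and 9.59 in low, and 8.38, 8.03, 8.45 and 8.57 in medium animals. All 4 medium animals were below every animal of the other groups, by 1.05 ± 0.21 from air (adjusted p = 0.0644) and 0.72 ± 0.21 from low (adjusted p = 0.109). CLDN14 was 4.09, 4.30 and 4.40 in air, 5.02, 4.58 and 4.95 in low, and 5.12, 5.07, 4.69 and 4.92 in medium animals. Exposed animals were all above air, by 0.59 ± 0.15 in low (adjusted p = 0.672) and 0.69 ± 0.14 in medium animals (adjusted p = 0.0675). TJP1 was 5.58, 5.28 and 6.02 in air, 5.42, 5.39 and 5.49 in low, and 6.50, 6.55, 6.43 and 5.71 in medium animals. Medium animals were all above low, by 0.86 ± 0.22 (adjusted p = 0.087), while medium animal 42 lay within the range of air, and medium versus air gave 0.67 ± 0.22 (adjusted p = 0.156).

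CLDN7 and CLDN5 leaned in opposite directions in the median lobe of medium animals. CLDN7 was above both other groups, by 0.43 ± 0.14 from air (adjusted p = 0.15) and 0.39 ± 0.14 from low (adjusted p = 0.148). CLDN5 was below both, by 0.23 ± 0.09 from air (adjusted p = 0.235) and 0.26 ± 0.09 from low (adjusted p = 0.15). The share of all probe sets called in this lobe was 0.404% in medium versus air, 0.0208% in medium versus low and 0% in low versus air. The animals of 4 genes did not overlap in medium versus air (CLDN5, CLDN7, CLDN11 and CLDN14), beside 15.1% of all probe sets. The same held for 4 in medium versus low (CLDN5, CLDN7, CLDN11 and TJP1), beside 18.9%, and for CLDN14 alone in low versus air, beside 16%. When only probe sets brighter than the median were tested, CLDN11 in medium versus air passed in this lobe (-1.05, adjusted p = 0.0427). The CLDN11 difference was the same as before, and 231 probe sets were called in place of 97.

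In the caudal lobe 4 of the 8 genes were free of overlap with air in low and 0 in medium animals, without a call. Over all probe sets the share free of overlap was larger in medium animals. CLDN4 was 7.57, 7.37 and 7.32 in air, 8.07, 8.24 and 7.86 in low, and 8.02, 7.28 and 7.86 in medium animals. All low animals were above air, by 0.64 ± 0.19 (adjusted p = 0.785), and medium animal 41 was below all air animals. CLDN3 was higher in all low than in all air animals by 0.74 ± 0.27 (adjusted p = 0.807) and OCLN by 0.24 ± 0.13 (adjusted p = 0.822), while TJP1 was lower by 0.43 ± 0.16 (adjusted p = 0.807). These 4 genes did not overlap in low versus air, beside 12.3% of all probe sets. In medium versus air 0 genes were free of overlap, beside 19.6%, and in medium versus low 0, beside 13.1%. CLDN11 in medium versus air was -0.94 ± 0.37 here (adjusted p = 0.275), with medium animal 41 just above air animal 44. The share of all probe sets called here was 0% in low versus air and in medium versus low, and 0.00417% in medium versus air.

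**Figure D4:**
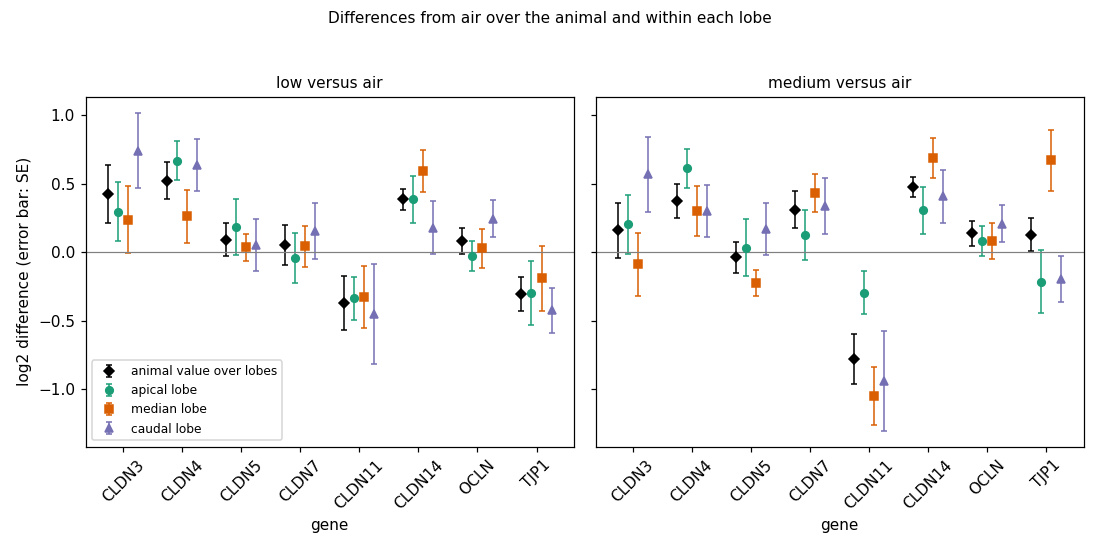
Log2 difference from air with its SE for low (left) and medium animals (right), from the animal values over all lobes and from each lobe alone, for the 8 genes. CLDN11 in medium versus air is -1.05 in the median, -0.94 in the caudal and -0.30 in the apical lobe, and TJP1 is 0.67 in the median but -0.22 and -0.20 in the apical and caudal lobes.

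In medium versus air TJP1 was 0.67 ± 0.22 in the median, -0.22 ± 0.23 in the apical and -0.20 ± 0.16 in the caudal lobe. The apical and caudal values were close to their SE in a dim probe set, so a change of sign is not shown. The medium minus air difference was 0.83 lower in the apical and 0.92 lower in the caudal than in the median lobe, and the interaction did not pass (adjusted p = 0.68). For the other 6 genes besides CLDN11 the interaction had adjusted p-values of 0.753 to 0.904 in their brightest probe sets.

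Ordering the 9 combinations of exposure and lobe by their mean level gave the widest range for CLDN11, 1.57 on the log2 scale from the median lobe of medium animals at 8.36 ± 0.23 (SD, n = 4) to the apical lobe of air animals at 9.93 ± 0.03 (n = 3). Only 1 of its 8 neighbouring steps, from the apical lobe of medium to that of air animals, was larger than the larger SD of the groups on either side. TJP1 spanned 0.86 from the median lobe of low animals to that of medium animals. CLDN4 spanned 0.79, from the caudal lobe of air animals to the median lobe of medium animals, and none of its 8 steps exceeded the SD. CLDN3 spanned 0.75, CLDN14 0.70, CLDN7 0.57, CLDN5 0.34 and OCLN 0.25, with at most 1 step beyond the SD in each.

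The genes most like each member over the 28 arrays, which share animals and lobes, were found among all genes with a single symbol. For CLDN11 these were HBP1 (Pearson r = 0.93), PIK3IP1 (0.93) and CCNG2 (0.92), a transcriptional repressor, an inhibitor of PI3 kinase and an atypical cyclin. For CLDN7 they were ARHGAP8, the adherens junction gene CDH1 and the keratin gene KRT8, each at r = 0.84. For CLDN5 they were the potassium channel gene KCNJ8 (0.83), the receptor gene KIT (0.81) and SMAD1 (0.76), which transmits BMP signals. CLDN3 was most like STK17A (0.78), CLDN4 most like BAIAP2L1 (0.71) and OCLN most like ETNPPL (0.73), which is itself dim at a mean signal of 8.14. Among the members, the closest pair of different genes in their brightest probe sets was CLDN7 and OCLN (r = 0.54), followed by CLDN3 and CLDN4 (0.49) and by CLDN4 and CLDN7 (0.48). CLDN7 and CLDN11 ran opposite to each other (-0.50).

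Of 45 other tight junction genes sought, 14 were measured under a single symbol. In the 3 exposure comparisons 0 of them were called. In apical versus median 1 was called higher, JAM3, a junctional adhesion molecule (0.20 ± 0.05, adjusted p = 0.0483), beside 2.38% of all probe sets called. JAM3 differed by 0.25 ± 0.05 in apical versus caudal (adjusted p = 0.07). The angiomotin-like gene AMOTL1 was next in apical versus median at 0.20 ± 0.05 (adjusted p = 0.0513), followed by the coxsackievirus and adenovirus receptor gene CXADR at -0.24 ± 0.08 (adjusted p = 0.131). In medium versus air the smallest p was that of CLDN10, a claudin of ion-selective pores (-0.73 ± 0.16, adjusted p = 0.0922), which differed by -0.53 ± 0.16 in medium versus low and by -0.20 ± 0.17 in low versus air. LSR, a protein of junctions where 3 cells meet, followed in medium versus air with 0.34 ± 0.13 (adjusted p = 0.245), then YBX3 with 0.25 ± 0.11 (adjusted p = 0.288) and MARVELD3 with -0.30 ± 0.14 (adjusted p = 0.32). In low versus air the smallest p was that of CXADR (0.24 ± 0.09, adjusted p = 0.661). Of the 14 genes 6 were above 0 in low versus air and 8 in medium versus air, with medians of -0.01 and 0.08.

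Adherens junction and desmosome genes, which hold epithelial cells together just below the tight junction, were measured for 10 of 16 sought, and 0 were called in any exposure or lobe comparison. NECTIN2, a nectin of adherens junctions, differed by 0.78 ± 0.16 in medium versus air (adjusted p = 0.086) and by 0.84 ± 0.16 in medium versus low (adjusted p = 0.0949), and by -0.07 ± 0.18 in low versus air. CTNND1, which encodes p120 catenin, differed by -0.32 ± 0.07 in medium versus air (adjusted p = 0.0916) in a dim probe set at a mean signal of 21.7. CDH1, the gene of E-cadherin, differed by 0.25 ± 0.11 in the same comparison (adjusted p = 0.288), beside the 0.31 of CLDN7. In the endothelium's own cadherin gene CDH5 the difference was -0.01 in medium versus air, beside the -0.04 of CLDN5.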

How the data were processed

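RNA of 28 left lung lobes from 10 swine was hybridised to the Affymetrix porcine array, per the labels. Linear signal intensities were deposited, 1 per probe set and array, and the authors' summarization method was not given in the sources used here. Trimmed by 2% at each end, the mean signal of each array was 150.0, as tested on the values. Of 24123 probe sets, 124 controls were left out, no filter on brightness was applied, and the annotation gave 10069 of the rest 1 symbol, 198 several and 13732 none.

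Values were taken as log2(signal + 16), quantile normalized and tested with limma 3.58.1 in R 4.3.3. Exposure was tested on 1 value per animal, its coefficient in a model of animal and lobe, with the 3 groups fitted together. Lobes and the interaction were tested on all 28 arrays, blocked by animal, since the titles name the animal of each lobe. The consensus correlation between an animal's lobes was 0.334. Within a lobe, each animal gave 1 array. The steps were tested on simulated data. A member is given by its brightest probe set. Other junction genes are named when called or among the 4 smallest p-values of a comparison, and the 3 genes most correlated were sought for members brighter than the median probe set. The members and lists were chosen with earlier results of these data known. No sequence table was used here, so sequences and coordinates are not given. Symbols were checked against a RefSeq gene table, and 0 probe sets changed symbol. The neighbouring position of CLDN3 and CLDN4 is from the RefSeq annotation of Sscrofa11.1. Precision is limited by the number of animals, since lobes of an animal are repeated measures. Alternatives were other array scalings, an offset of 1, brighter probe sets only, other treatments of the animal, fewer groups or animals, the mean of a gene's probe sets and the RNA integrity covariate.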

Additional observations from a re-analysis of the deposited data

Results flagged for a closer look

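The 8 genes, over the animal and in the median lobe, formed 16 groups of the 4 medium animals. In 2 of the 16 an animal lay far from the other 3, where chance alone gives about 1 in 20 groups. The groups share the same 4 animals and are not independent, and whether 2 exceeds chance was not tested. OCLN in the median lobe was 8.67 in medium animal 34 and 9.07 to 9.12 in the other 3 medium animals. TJP1 in the median lobe was 5.71 in medium animal 42 and 6.43 to 6.55 in the other 3.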

How the results depend on the processing

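Of the 8 genes, 1 was called in medium versus air in place of 0 with an offset of 1 (CLDN14), a random animal effect (CLDN11) or the RNA integrity covariate (CLDN14), and 0 to 1 without 1 animal. In apical versus median 0 in place of 1 were called with the 8 complete animals (CLDN11 0.68) or the air animals only (0.52), and 0 to 1 without 1 animal (CLDN11 0.71 to 0.87). With brighter probe sets only, 1 was called in apical versus caudal (CLDN11), where 150 probe sets were called in place of 40. For the median lobe that setting called 1 in medium versus air (CLDN11), where 231 probe sets were called in place of 97. Without the animal as a block, 1 was called in apical versus median, CLDN11 (0.79, adjusted p = 0.0483), and of all probe sets 39 in place of 570. Other counts of members kept their side of the threshold. Calls over all probe sets in medium versus air, 31, became 1044 with the random animal effect, 87 with the covariate, and 0 to 391 without 1 animal. Those in apical versus median, 570, became 48 with the 8 complete animals and 0 with the air animals only. They became 33 to 569 without 1 animal and 1005 with brighter probe sets only. Scaling choices moved the median of all probe sets by at most 0.06.

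Differences that changed sign were all uncalled. With the 8 complete animals these were CLDN14 (0.013) and TJP1 (0.15) in apical versus median, CLDN3 in apical versus caudal (-0.046), CLDN4 (0.00085) and OCLN (-0.013) in medium versus low, and CLDN5 in medium versus air (0.046). With the air animals only they were CLDN14 (0.19) and TJP1 (0.30) in apical versus median, and CLDN7 (0.063) and OCLN (0.14) in apical versus caudal. With the mean of a gene's probe sets they were CLDN3 (-0.068) and OCLN (0.030) in apical versus caudal and OCLN in medium versus low (-0.20). Without the replicate block CLDN3 was -0.028 and OCLN 0.0050 in apical versus caudal. Median-centred arrays gave -0.0056 for CLDN3 in apical versus caudal and 0.0036 for OCLN in caudal versus median, an offset of 1 gave 0.059 for CLDN14 in apical versus median, and the covariate gave -0.0033 for OCLN in medium versus low.

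Without 1 animal, ranges that crossed 0 were those of CLDN7 in low versus air (-0.098 to 0.14), CLDN3 (-0.012 to 0.29) and CLDN5 (-0.11 to 0.081) in medium versus air, CLDN5 (-0.082 to 0.021), CLDN14 (-0.095 to 0.036) and TJP1 (-0.12 to 0.12) in apical versus median, CLDN3 (-0.098 to 0.085), CLDN14 (-0.11 to 0.012) and OCLN (-0.039 to 0.049) in apical versus caudal, and CLDN14 in caudal versus median (-0.00084 to 0.13). CLDN14 in medium versus air ranged from 0.45 to 0.50. The cause of these changes was not tested. With 3 or 4 animals in a group and CLDN14 and TJP1 dim, a difference that missed the threshold is not shown to be absent.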
